A study of Mus musculus with 18 samples.

Results

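The genes described here are the machinery of autophagy in mouse liver during repeated injury with carbon tetrachloride (CCl4), a solvent that hepatocytes turn into a toxic radical. The members were chosen by name as a list of 40 genes, by a rule that sets no threshold on a measured value, although the list was drawn up with earlier results of these data known, and were taken by symbol from the deposited array table: 39 of the 40 had a named feature among 23111 named features, and Optn was not analysed here. All 39 were above the filter on low values (over 4.15, the 40th percentile of all values, on at least 3 arrays), as were 15219 of all named features (65.9%). The 39 genes were ordered by the step at which their products act: initiation (5 genes), nucleation (6), membrane supply (5), conjugation (11), the LC3 and GABARAP family (5), cargo receptors (6) and 1 transcription factor.

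Autophagy encloses part of the cytoplasm in a double membrane, the autophagosome, and delivers it to the lysosome for breakdown. A kinase complex around ULK1 or ULK2 starts the process, a class III PI3-kinase marks the membrane with a phospholipid, and a pair of ubiquitin-like conjugation systems attach proteins of the LC3 and GABARAP family to the growing membrane, where receptors dock their cargo. In hepatocytes the pathway turns over mitochondria, protein aggregates and lipid droplets, and the lysosome supplies the enzymes of the last step. Since LC3 is the usual marker of autophagosomes and TFEB the factor best known for switching on lysosomal and autophagy genes, both were followed in every liver.

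Whole-liver RNA of male C57Bl/6N mice was hybridised to 18 one-colour Affymetrix arrays in 6 groups of 3 mice. Treated mice had received 1.6 g/kg CCl4 by intraperitoneal injection 2 times per week for 2, 4, 6, 8 or 10 weeks and were killed 2 days after the last injection, at 12, 14, 16, 18 and 20 weeks of age. The control livers came from mice of 20 weeks that the labels call healthy and place at week 10 of the experiment. The study describes its control mice as injected with olive oil, the solvent of the CCl4, while its account of the array analysis calls the mice used for comparison untreated. Among treated mice, age and weeks of CCl4 cannot be told apart, and only week 10 livers shared the age of the controls. Every mouse had the same genotype.

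The number of arrays, not a count of reads, limited the precision. Replicates 1 and 2 of week 6 differed far less than any other pair within a group. The SD of their log2 difference over 500 variable genes was 0.137, against 0.347 to 0.832 for the other pairs. Their mean was therefore counted as 1 sample, and 17 samples entered the fits. Over the 39 members alone the pair did not stand out (SD 0.186, against 0.168 for control replicates 1 and 3). Control replicate 1 alone did not share the set of sorted values common to the other 17 arrays. A further array, of week 10, averaged 1.10 log2 units above the control mean over 8 pancreatic acinar genes, where the other treated arrays ranged from -0.32 to 0.08. Hepatocyte markers were present on every array (7 genes such as Alb, albumin, and Hnf4a, a hepatocyte transcription factor, with a lowest value of 11.3 on the log2 scale, where the median of an array was 4.35). Over these genes the treated livers averaged -0.19 to -0.04 relative to the control mean. Alb stood at 14.12 on all 18 arrays, the highest value of the data, where a fall may not show.

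Messenger RNA of the autophagy machinery lay below the control level for most genes at every time, and lowest at week 6. A gene was called when its difference exceeded 1.5-fold with an adjusted p under 0.05 (limma, Benjamini-Hochberg over all 23111 named features). At week 6 against control, 9 of 39 members were called lower (23.1%, against a background of 1.86% of all named features): Bnip3, Gabarapl1, Atg4d, Ulk2, Rb1cc1, Atg2a, Wipi1, Wipi2 and Uvrag. None was called higher, as 2.98% of all features were. Without the fold threshold 13 members passed as lower (33.3%, against 4.59%), the further ones being Atg9a, Atg16l1, Map1lc3a and Tfeb, and no member passed as higher (against 5.18% of all features). When the test was confined to the 15219 features above the filter, 10 members were called lower (25.6%, against 3.2%), with Atg14 as the further one. Just inside the fold threshold lay Uvrag (-0.59) and Atg2a, Wipi1 and Wipi2 (each -0.60), and just outside it Atg9a (-0.57).

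**Figure D1:**
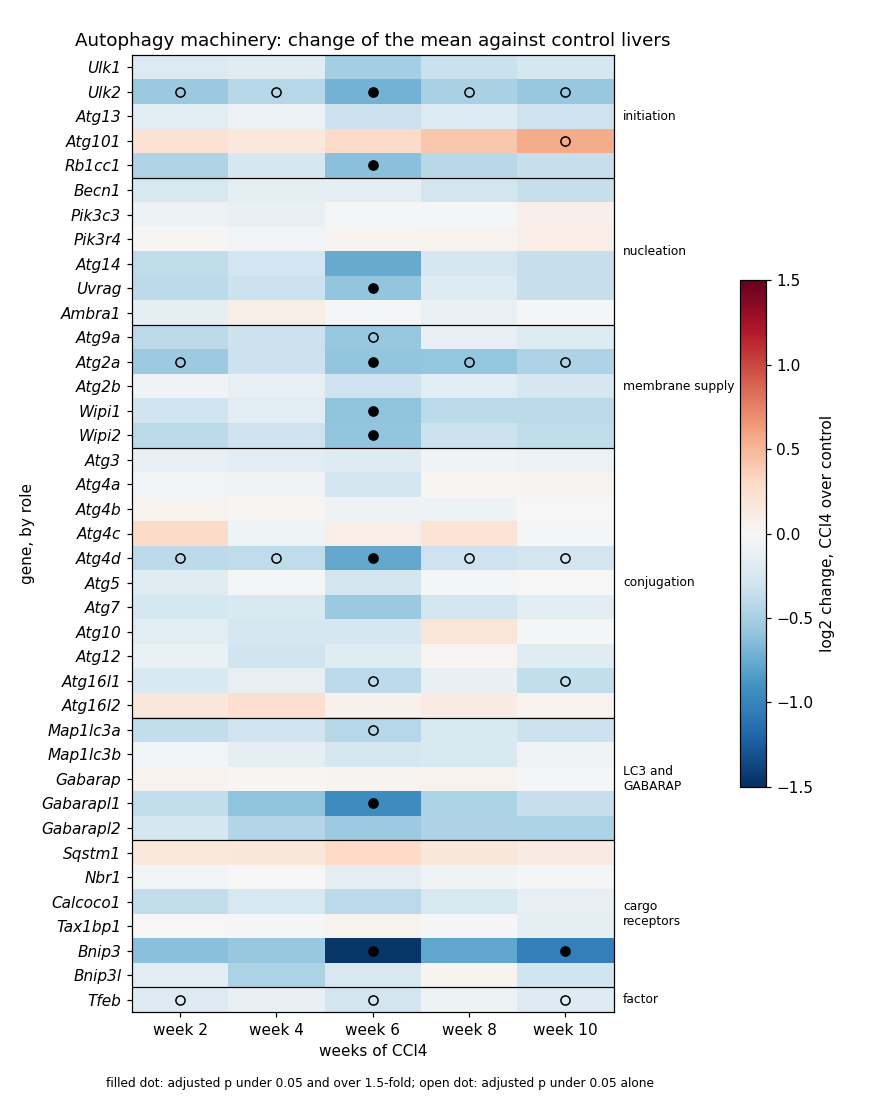
Log2 change of each of the 39 members (rows, grouped by role) in CCl4 livers over control livers at weeks 2 to 10 (columns), blue for lower and red for higher; filled dots mark members called lower and open dots those that passed the adjusted p alone. The 9 filled dots of week 6 are spread over 6 of the 7 roles, and 1 further filled dot, Bnip3, stands at week 10.

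The other weeks gave few calls. No member was called lower at week 2 (background 0.575%), week 4 (0.355%) or week 8 (0.398%), and at week 10 only Bnip3 was (2.56% of members, against 0.762%). By adjusted p alone, 4 members passed as lower at week 2 (10.3%, against 1.31%), 2 at week 4 (5.13%, against 0.913%), 3 at week 8 (7.69%, against 0.922%) and 6 at week 10 (15.4%, against 2.52%). Ulk2 and Atg4d passed in all 5 weeks, Atg2a in every week but week 4, and Tfeb at weeks 2, 6 and 10. At an unadjusted p under 0.05, 13, 12, 23, 12 and 16 members passed at weeks 2, 4, 6, 8 and 10 (33.3, 30.8, 59, 30.8 and 41%, against 15.1, 13.7, 23.5, 14.3 and 20.9% of all features). With single samples left out, the counts of called members reached 1 at week 2 and 2 at weeks 8 and 10.

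Most of the list lay on the lower side. The median log2 change of the members was -0.19 at week 2, -0.16 at week 4, -0.28 at week 6, -0.13 at week 8 and -0.19 at week 10, while the median of all named features stayed between -0.02 and -0.01 and that of the features above the filter was -0.04 at week 6. Between 29 and 33 of the 39 members were below 0 in each week, and 24 were below 0 in all 5 weeks (61.5%, against 27% of all named features). For 26 members the lowest of the 5 weekly means fell at week 6 (66.7%, against 26.9% of all named features). Averaged over the list, the treated livers ranged from -0.36 to -0.10 log2 units relative to the control mean and the 3 week 6 arrays from -0.36 to -0.33, against -0.02 to 0.02 in control livers. Since whole liver was measured, a different mix of cell types and less of these RNAs within cells cannot be told apart.

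**Figure D2:**
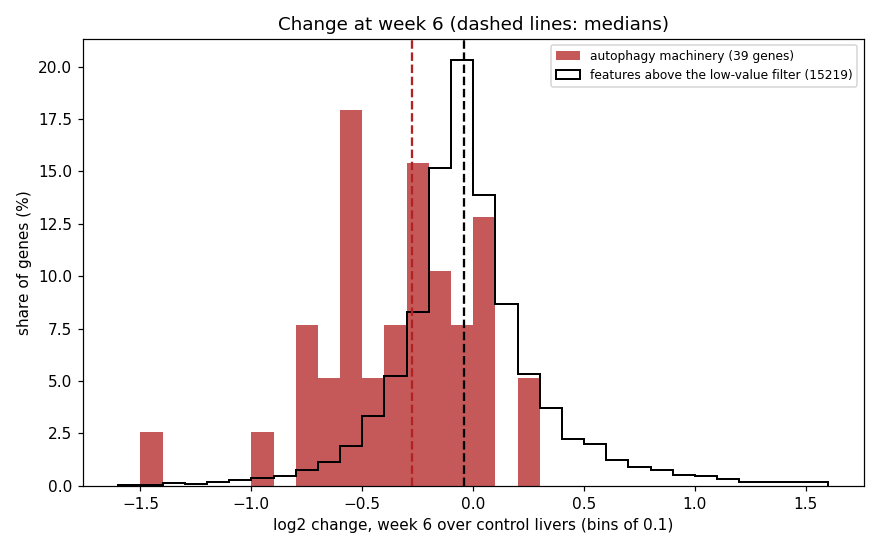
Share of genes (vertical axis, %) by log2 change of week 6 over control livers (horizontal axis, bins of 0.1), for the 39 members (red bars) and the 15219 features above the filter on low values (black outline). The dashed medians stand at -0.28 for the members and -0.04 for the features, and no member lies above 0.30.

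The DNA next to 3 members is shown: Bnip3 and Ulk2, called lower at week 6, and Atg3, which did not pass in any week. The 130 bases before their annotated starts are given 5′ to 3′ from RefSeq (GRCm38.p6). They are the upstream part of windows that run from 250 bases before to 50 bases after the start. Bnip3, the member with the largest fall, is shown with its E-box (CACGTG) in capitals (chr7:138909507-138909636, minus strand), Ulk2, a kinase that was lower in all treated livers, with the core of the antioxidant response element (TGACNNNGC; chr11:61855093-61855222, minus strand), and Atg3 with TCACGTGA, the core of the CLEAR element that TFEB binds (chr16:45158699-45158828, plus strand).
Bnip3: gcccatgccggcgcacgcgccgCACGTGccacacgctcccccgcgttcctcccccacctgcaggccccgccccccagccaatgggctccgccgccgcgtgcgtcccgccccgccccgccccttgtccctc
Ulk2: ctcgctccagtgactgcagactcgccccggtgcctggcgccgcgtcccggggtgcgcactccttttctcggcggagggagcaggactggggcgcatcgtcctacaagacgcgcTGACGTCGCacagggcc
Atg3: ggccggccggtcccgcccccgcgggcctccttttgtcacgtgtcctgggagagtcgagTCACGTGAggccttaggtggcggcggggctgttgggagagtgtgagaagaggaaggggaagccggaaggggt
Of the 40 members, 33 had a window, and 8 of the 9 genes called lower at week 6. CACGTG was found on either strand in 5 of the 33 (Atg14, Atg3, Atg5, Atg7 and Bnip3, 15.2%), against 8.09% of all 27025 genes with a window. The longer TCACGTGA, which contains CACGTG, was found in Atg3 alone (3.03%, against 1.12% of all genes), where another CACGTG lies at positions -94 to -89 from the start. TGACNNNGC was present in Atg13, Map1lc3b, Tax1bp1 and Ulk2 (12.1%, against 14% of all genes), and GTAAACA, a forkhead site, in none (against 4.05% of all genes). Median GC content was 60% in the members' windows and 52.7% over all genes. Among the genes called lower at week 6, Bnip3 alone held CACGTG and Ulk2 alone held TGACNNNGC. These are matches of letters in a short window, not measured binding sites.

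The first role was initiation. Ulk2 had log2 values of 8.94, 8.87 and 9.09 in week 2 livers, 9.11, 9.06 and 9.12 at week 4, 8.78, 8.96 and 8.77 at week 6, 8.84, 9.28 and 9.0 at week 8 and 8.89, 8.92 and 9.04 at week 10, against 9.53, 9.61 and 9.43 in control livers. Ulk2 encodes 1 of the 2 kinases that start autophagosome formation. All 15 treated arrays were below all 3 controls, and the week 6 level was 1.63-fold lower (log2 change -0.71 ± 0.10 SE, adjusted p = 0.0018). The other weeks ran from -0.43 at week 4 to -0.57 at week 10. Rb1cc1 gave 7.41, 7.56 and 7.85 in week 2 livers, 7.86, 7.88 and 7.67 at week 4, 7.52, 7.53 and 7.31 at week 6, 7.54, 7.81 and 7.56 at week 8 and 7.59, 7.64 and 7.88 at week 10, against 7.95, 8.14 and 8.06 in control livers. Rb1cc1, the scaffold (FIP200) that holds the kinase complex together, was likewise lower in every treated liver, and it was called at week 6 (log2 change -0.63 ± 0.13 SE, adjusted p = 0.010). Ulk1, the other kinase, was at -0.51 ± 0.15 at week 6 and did not pass (adjusted p = 0.057), although its week 6, 8 and 10 livers all lay below the controls. Atg13, which bridges the kinase and the scaffold, did not pass in any week.

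Atg101, a small partner of ATG13, went the other way. Atg101 measured 6.20, 6.28 and 6.60 in week 2 livers, 6.54, 6.18 and 6.20 at week 4, 6.33, 6.54 and 6.44 at week 6, 6.57, 6.44 and 6.64 at week 8 and 6.69, 6.73 and 6.69 at week 10, against 6.22, 6.04 and 6.18 in control livers. The week 6, 8 and 10 livers were above all controls, and the week 10 difference passed the adjusted p but not the fold threshold (log2 change 0.56 ± 0.11 SE, adjusted p = 0.012). It was the only member that passed as higher, at week 10 (2.56% of members, against 2.46% of all features) and in the mean of all CCl4 weeks (2.56%, against 4.27%). In that mean it was 0.32 ± 0.08 (adjusted p = 0.028).

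Nucleation depends on the lipid kinase Vps34 (Pik3c3), its partner Vps15 (Pik3r4) and Beclin 1 (Becn1), none of which passed the test in any week. Pik3c3 lay between -0.11 and 0.07 over the 5 weeks and Pik3r4 between -0.04 and 0.09. Becn1 was at -0.24 at week 2, -0.14 at week 4, -0.14 at week 6, -0.28 at week 8 and -0.34 ± 0.12 at week 10 (adjusted p = 0.11), where all 3 livers were below all controls. Of the subunits that sort the kinase into its alternative complexes, Uvrag and Atg14 had their largest differences at week 6. Uvrag had log2 values of 8.14, 7.98 and 8.16 in week 2 livers, 8.12, 8.42 and 7.95 at week 4, 7.86, 7.72 and 8.01 at week 6, 8.22, 8.31 and 8.32 at week 8 and 8.04, 8.18 and 8.20 at week 10, against 8.40, 8.55 and 8.51 in control livers. Uvrag, the subunit of the complex that acts on endosomes and late autophagosomes, was called lower at week 6 (log2 change -0.59 ± 0.11 SE, adjusted p = 0.0069), where all 3 arrays were below all controls. The controls overlapped the treated range only through a single week 4 liver. Atg14 read 5.82, 6.23 and 6.06 in week 2 livers, 5.93, 6.58 and 5.88 at week 4, 5.51, 5.64 and 5.75 at week 6, 5.99, 6.16 and 6.34 at week 8 and 5.86, 5.98 and 6.37 at week 10, against 6.23, 6.80 and 6.21 in control livers. Atg14, which directs the kinase to the forming autophagosome, was -0.75 ± 0.23 at week 6 (adjusted p = 0.062), a larger difference than that of Uvrag with a larger error, and it was not called. Ambra1, a regulator of Beclin 1, lay between -0.14 and 0.09.

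Membrane supply was the role with the highest share of calls, 3 of 5 at week 6, and all 5 of its genes were below 0 there. All 3 calls lay close to the fold threshold (a log2 change of 0.58). They were lost in 7 (Atg2a), 6 (Wipi2) and 9 (Wipi1) of the other settings tried. Atg2a had log2 values of 7.42, 7.24 and 7.25 in week 2 livers, 7.35, 7.72 and 7.49 at week 4, 7.38, 7.38 and 7.12 at week 6, 7.25, 7.32 and 7.24 at week 8 and 7.28, 7.38 and 7.49 at week 10, against 8.00, 7.62 and 7.93 in control livers. Atg2a, a lipid transfer protein that feeds the growing membrane, was lower in all treated groups except that the week 4 livers overlapped the controls. It was called at week 6 (log2 change -0.60 ± 0.13 SE, adjusted p = 0.010). Wipi2 read 7.51, 7.15 and 7.33 in week 2 livers, 7.56, 7.40 and 7.30 at week 4, 7.09, 7.36 and 7.05 at week 6, 7.30, 7.55 and 7.38 at week 8 and 7.31, 7.24 and 7.52 at week 10, against 7.81, 7.73 and 7.67 in control livers. Wipi2, which reads the phospholipid mark and recruits the conjugation machinery, was lower in every treated liver than in any control (week 6 log2 change -0.60 ± 0.12 SE, adjusted p = 0.0072). Wipi1 gave 7.69, 7.47 and 7.14 in week 2 livers, 7.34, 7.85 and 7.54 at week 4, 7.20, 7.22 and 7.06 at week 6, 7.31, 7.38 and 7.30 at week 8 and 7.27, 7.44 and 7.32 at week 10, against 7.98, 7.52 and 7.71 in control livers. Wipi1, its relative, overlapped the controls at weeks 2 and 4 and was called at week 6 (log2 change -0.60 ± 0.17 SE, adjusted p = 0.038). Atg9a, the scramblase that works with ATG2 proteins, was just short of the fold threshold (log2 change -0.57 ± 0.12 SE, adjusted p = 0.012), and Atg2b was at -0.31 (adjusted p = 0.057).

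**Figure D3:**
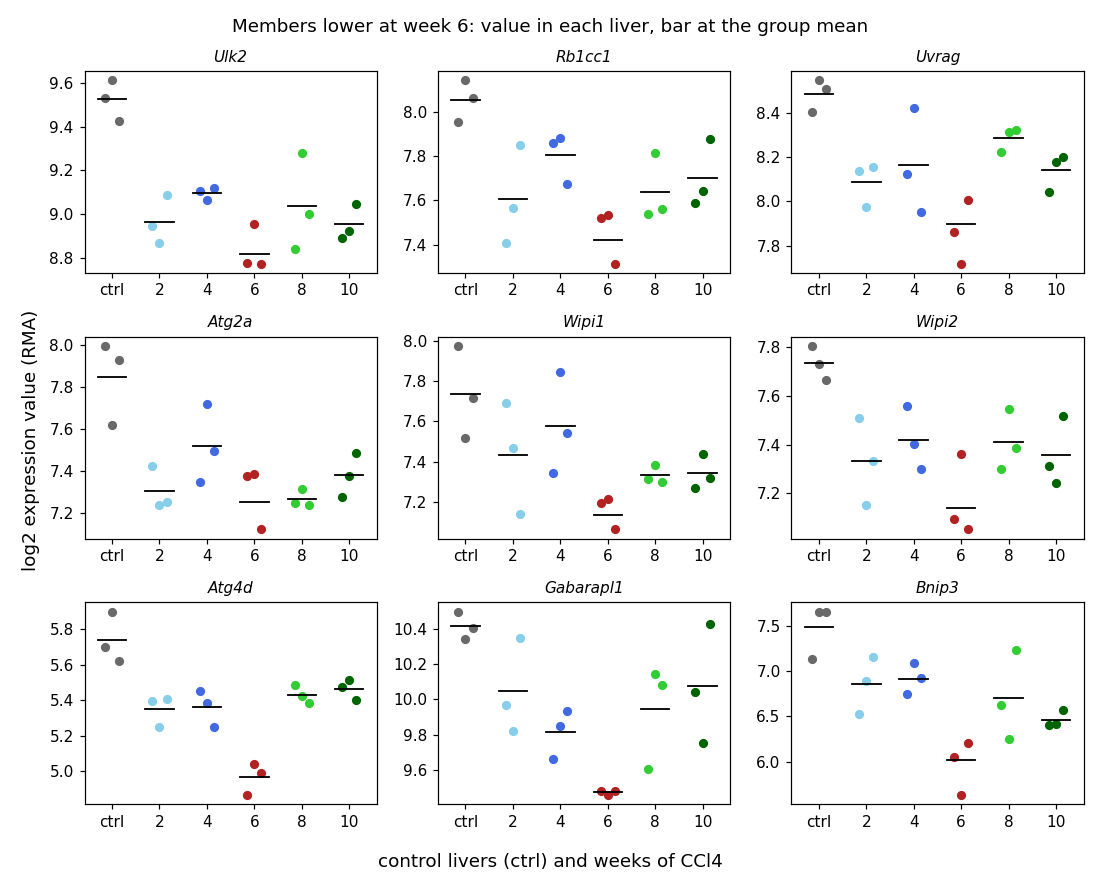
Log2 expression value (vertical axes, scale set per gene) of the 9 members called lower at week 6, in each liver of the control group and of weeks 2 to 10 of CCl4 (horizontal axes), with a bar at the group mean (week 6 replicates 1 and 2 counted once). Week 6 has the lowest mean in all 9 panels, narrowly in Atg2a (7.25 at week 6 and 7.27 at week 8).

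Among the 11 genes of the conjugation systems, Atg4d was the only one called. Atg4d had log2 values of 5.40, 5.25 and 5.41 in week 2 livers, 5.45, 5.38 and 5.25 at week 4, 4.87, 5.04 and 4.99 at week 6, 5.49, 5.42 and 5.38 at week 8 and 5.48, 5.52 and 5.40 at week 10, against 5.70, 5.90 and 5.62 in control livers. Atg4d encodes a protease of the ATG4 family, which primes LC3 and GABARAP proteins and removes them from membranes. No treated liver reached the lowest control, and the week 6 livers were below every other treated liver (week 6 1.71-fold lower, log2 change -0.77 ± 0.08 SE, adjusted p = 2.2e-04). Its relatives differed less at week 6: Atg4a was at -0.28, Atg4b at -0.07 and Atg4c at 0.09, and none passed. Of the enzymes and partners of conjugation, Atg16l1, which places LC3 on the membrane, passed the adjusted p at weeks 6 (-0.40, 0.020) and 10 (-0.37, 0.029). Atg7, the E1-like enzyme of both systems, was at -0.55 ± 0.19 at week 6 (adjusted p = 0.089). Atg3, Atg5, Atg10, Atg12 and Atg16l2 lay between -0.27 and 0.06 at week 6 and did not pass in any week.

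The LC3 and GABARAP family was uneven. Gabarapl1 had log2 values of 9.97, 9.82 and 10.35 in week 2 livers, 9.66, 9.85 and 9.93 at week 4, 9.48, 9.46 and 9.48 at week 6, 9.61, 10.15 and 10.08 at week 8 and 10.04, 9.75 and 10.43 at week 10, against 10.50, 10.34 and 10.41 in control livers. At week 6 the 3 arrays of Gabarapl1, whose product is conjugated to the autophagosome, stood close together, although replicates 1 and 2 were counted as 1 sample. The week 6 level was 1.93-fold below the control mean (log2 change -0.95 ± 0.20 SE, adjusted p = 0.011), and weeks 4 and 8 were also below all controls. Map1lc3a read 4.84, 4.97 and 5.22 in week 2 livers, 5.01, 5.19 and 5.04 at week 4, 5.10, 5.07 and 4.83 at week 6, 5.12, 5.18 and 5.15 at week 8 and 5.07, 4.87 and 5.23 at week 10, against 5.24, 5.50 and 5.41 in control livers. Map1lc3a (LC3A) was lower in every treated liver than in any control, by less than the fold threshold (log2 change -0.43 ± 0.12 SE, adjusted p = 0.048 at week 6). Map1lc3b gave 9.98, 10.08 and 10.43 in week 2 livers, 9.93, 10.40 and 9.84 at week 4, 10.08, 10.08 and 9.81 at week 6, 9.84, 9.90 and 10.17 at week 8 and 9.97, 10.16 and 10.32 at week 10, against 10.29, 10.21 and 10.11 in control livers. Map1lc3b (LC3B), the form usually measured as LC3, overlapped the controls in every week but week 6 and did not pass in any (log2 change -0.26 ± 0.18 SE, adjusted p = 0.44 at week 6). Gabarap was between -0.03 and 0.05 in all weeks. Gabarapl2 was at -0.55 ± 0.23 at week 6 (adjusted p = 0.16), with a single control, at 7.00, above all other livers.

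**Figure D4:**
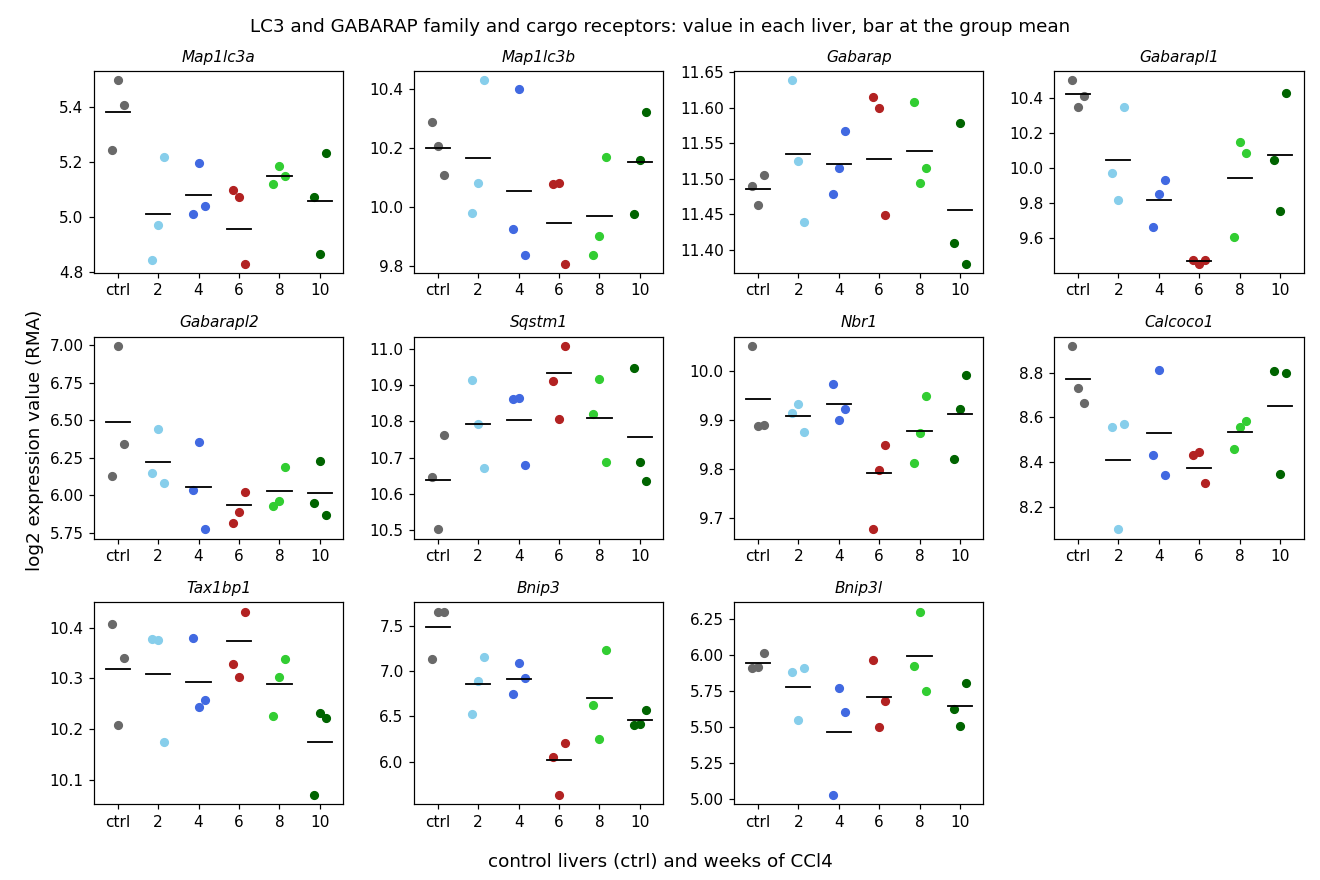
Log2 expression value (vertical axes, scale set per gene) of the 5 LC3 and GABARAP genes and 6 cargo receptors in each liver of the control group and of weeks 2 to 10 of CCl4 (horizontal axes), with a bar at the group mean. Gabarapl1 and Bnip3 have their lowest group at week 6, Map1lc3a has all treated livers below all controls, and in Sqstm1 the week 6 livers lie above the controls.

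Of the cargo receptors, Bnip3 had the largest difference of all members. Bnip3 had log2 values of 6.53, 6.89 and 7.16 in week 2 livers, 6.75, 7.09 and 6.92 at week 4, 6.05, 5.63 and 6.20 at week 6, 6.62, 6.25 and 7.24 at week 8 and 6.41, 6.42 and 6.57 at week 10, against 7.14, 7.66 and 7.65 in control livers. Bnip3 is a receptor of the outer mitochondrial membrane that docks mitochondria to LC3 and is induced by low oxygen. It was 2.75-fold lower at week 6 (log2 change -1.46 ± 0.26 SE, adjusted p = 0.0045) and 2.03-fold lower at week 10 (log2 change -1.02 ± 0.23 SE, adjusted p = 0.026), and all livers of weeks 4, 6 and 10 were below all controls. The week 10 call was lost without control replicate 2 (adjusted p = 0.080) or 3 (0.096) and without week 10 replicate 1 (0.070) or 2 (0.079). Its relative Bnip3l (NIX), which clears mitochondria from maturing red cells, was at -0.24 at week 6 (adjusted p = 0.53). Sqstm1 (p62), which carries ubiquitinated cargo and is itself degraded with it, was 0.30 ± 0.11 at week 6 and above 0 in all weeks, without passing (adjusted p = 0.12). Nbr1, Calcoco1 and Tax1bp1 were at -0.15, -0.40 and 0.05 at week 6 and did not pass in any week.

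Tfeb, the transcription factor, had low values throughout. Tfeb had log2 values of 4.42, 4.45 and 4.52 in week 2 livers, 4.50, 4.60 and 4.56 at week 4, 4.49, 4.32 and 4.37 at week 6, 4.61, 4.63 and 4.52 at week 8 and 4.46, 4.50 and 4.47 at week 10, against 4.70, 4.67 and 4.62 in control livers. Every week 2, 4, 6 and 10 liver was below every control, yet the differences were small, -0.28 ± 0.04 at week 6 (adjusted p = 0.0028) and -0.20 at week 2 (0.021). Tfeb protein is controlled mainly by its place in the cell, which an array does not measure.

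To ask what held over the whole course, the mean of all 5 CCl4 weeks was set against control. A single member, Bnip3, was called lower (log2 change -0.89 ± 0.18 SE, adjusted p = 0.0097; 2.56% of members, against 0.939%), and 12 passed the adjusted p alone (30.8%, against 4.54%). Without control replicate 2 or 3, Bnip3 itself missed the threshold (adjusted p = 0.062 and 0.068). Next came Ulk2 (-0.55 ± 0.07), Gabarapl1 (-0.55 ± 0.14), Atg2a (-0.50 ± 0.09) and Atg4d (-0.43 ± 0.06), all short of 1.5-fold. By a count that uses no model, every treated liver lay below every control for 5 members, Ulk2, Rb1cc1, Wipi2, Atg4d and Map1lc3a (12.8%, against 2.22%), and above every control for none (against 2.51%). Without control replicate 1 the members with no overlap numbered 9. At week 6 alone, 28 members had both samples below all controls (71.8%, against 24.3%).

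The overall tests asked whether members differed among groups at all. Over the 6 groups, 5 members passed (Ulk2, Atg2a, Atg4d, Bnip3 and Tfeb, 12.8%, against 3.62%), and without control replicate 1 only 1 did. Leaving out control replicate 2 or 3, week 6 replicate 3, or week 6 replicates 1 and 2 together left 2, and leaving out week 2 replicate 2 or week 10 replicate 1 or 2 left 3. Among the 5 CCl4 weeks themselves, no member passed with limma (background 0.0692%), although 8 had an unadjusted p under 0.05 (20.5%, against 11.9% of all features). The study distinguished a progression phase at weeks 4 and 6 from a tolerance phase at weeks 8 and 10; the mean of the later pair minus the earlier pair gave no call in any of the 23111 features (0%), with 7 members at an unadjusted p under 0.05 (17.9%, against 9.47% of all features). That comparison joined week 6 with week 4, and no test set week 6 against the other CCl4 weeks. In the F-test over the 5 weeks, Atg4d came nearest (unadjusted p = 3.8e-04, adjusted p = 0.12). A lower mean at week 6 than at other CCl4 times was thus not tested directly and not shown for any single member.

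The week 6 differences depended on which samples stood for that week. Without week 6 replicate 3, or without replicates 1 and 2 together, only 1 sample stood for week 6. Without replicate 3 the log2 change was -1.64 for Bnip3, -0.70 for Uvrag, -0.53 for Rb1cc1, -0.51 for Wipi2 and -0.47 for Atg2a. Without replicates 1 and 2 it was -1.28, -0.48, -0.74, -0.68 and -0.72 for the same genes. All 9 genes called lower at week 6 kept a negative difference with each of the 19 omissions.

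Genes around the machinery did not share one direction. Among 27 measured lysosome genes of the CLEAR network, 10 were called higher (against 2.98% of all features) and 1 lower at week 6 (median log2 change 0.26), and 4 were called higher in the mean of all CCl4 weeks (against 1.64%). Atp6v0d2, a subunit of the proton pump, was 1.92 ± 0.45 higher in that mean (adjusted p = 0.019), Ctss, a cathepsin, 1.69 ± 0.18 (1.9e-04), and Cd63, a membrane protein of late endosomes, 1.15 ± 0.24 (0.011). The gene called lower at week 6 was Npc1, which exports cholesterol from lysosomes (-0.74 ± 0.17, adjusted p = 0.017; named after its value was seen). Each treated liver was 0.14 to 0.58 above the control mean over this list, against -0.07 to 0.06 in control livers. Macrophage markers, which include Ctss, stood higher in the same livers: 10 of 14 were called higher at week 6 (median 1.72), and their mean lay 0.65 to 2.08 above the control mean in treated livers, against -0.26 to 0.18 in control livers.

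Calls in other lists of the pathway at week 6 are set beside 1.86% of all named features called lower and 2.98% called higher. In 30 upstream nutrient kinases and their regulators 1 was called lower, Deptor, an inhibitor of mTOR (-0.64 ± 0.15, adjusted p = 0.016). Among 23 other core and regulatory autophagy genes 2 were called lower, Wdr45b, a relative of the WIPI proteins (-0.70 ± 0.18, adjusted p = 0.027), and Trp53inp2, a regulator that binds LC3 (-0.77 ± 0.21, adjusted p = 0.036). Both were also lower in the mean of all CCl4 weeks (-0.76 and -0.68). None of 16 other selective receptors, 15 fusion factors, or 7 relatives of TFEB and FOXO factors was called. In 10 genes of lipid droplets and lipolysis, 2 were called lower and 1 higher, so lower calls were not particular to the members. The lower ones were Pnpla2, the main triglyceride lipase (-1.08 ± 0.18, adjusted p = 0.0029), and Mgll, which splits monoglycerides (-1.15 ± 0.21, adjusted p = 0.0054). The higher one was Plin2, a droplet coat protein (0.65 ± 0.13, adjusted p = 0.0073). Of 9 NRF2 targets only Nqo1 was called higher at week 6 (1.16 ± 0.29, adjusted p = 0.026).

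**Figure D5:**
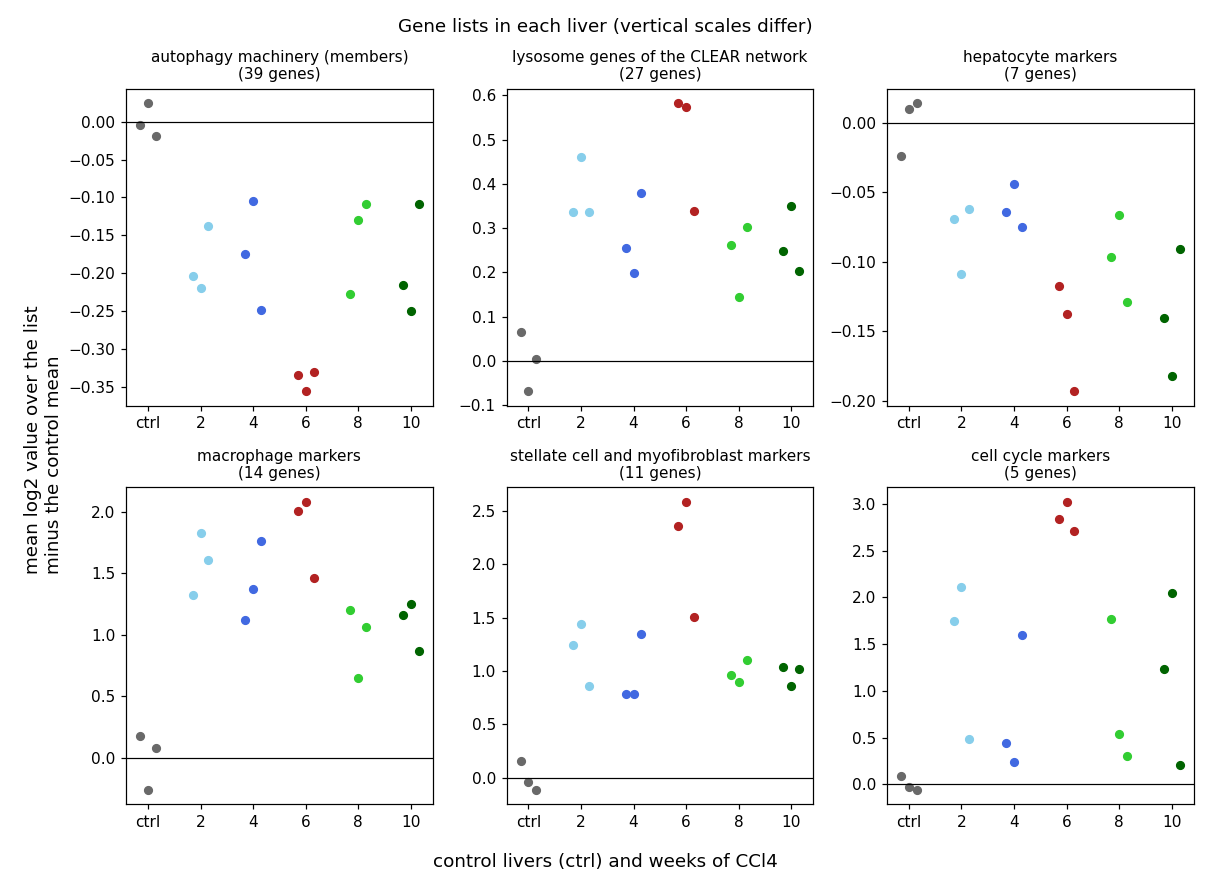
Mean log2 value over each gene list minus its control mean (vertical axes, scale set per panel) in each liver of the control group and of weeks 2 to 10 of CCl4 (horizontal axes), for the 39 members, lysosome genes and 4 sets of markers. By these list means, every treated liver is below the controls for the members and the hepatocyte markers. It is above them for lysosome, macrophage, stellate cell and cell cycle genes. The week 6 livers are at the extreme for the members and the cell cycle genes. Of the 7 hepatocyte genes only 1, Cyp2e1, was called lower at week 6.

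Besides the macrophage list, 1 of the other lists of liver cell types held called genes that were higher at week 6. Stellate cell and myofibroblast markers were called higher for 7 of 11 genes at week 6, with list means of 0.78 to 2.59 above the control mean in treated livers, against -0.12 to 0.15 in control livers. None of 6 neutrophil, 7 T and B cell, 5 cholangiocyte or 7 endothelial markers was called at week 6, with median log2 changes of 0.24, 0.04, 0.01 and 0.27. All 5 measured cell cycle markers were called higher at week 6, and their list mean was 2.71 to 3.02 above the control mean in week 6 livers, 0.20 to 2.11 in the other treated livers and -0.06 to 0.09 in control livers. The hepatocyte list stood at -0.19 to -0.12 in week 6 livers, and the members at -0.36 to -0.33. Of the 7 hepatocyte genes 1 was called lower at week 6, Cyp2e1, the cytochrome that activates CCl4 (-1.12 ± 0.29, adjusted p = 0.028). The lowest change of the 7 was that of Cyp2e1 and the highest was 0.14, so this gene weighed most in the list mean. The median log2 change of the 7 was -3.6e-04, the same as at week 4, with 4 below 0 and 3 above 0. A value so small lay within the range of Alb over all arrays (14.1191 to 14.1202), where a fall may not show. This median thus does not show that the hepatocyte genes were unchanged. Since Alb also stood at the top of the scale on every array, the means of the hepatocyte list and the members are not like measures of a fall. The part of cell composition in the lower values of the autophagy genes was not tested.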

How the data were processed

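Liver RNA of 18 mice was measured on Affymetrix MoGene 2.0 ST arrays, and 1 value per Entrez gene was given for 23748 features. The deposited values are log2 intensities that the authors made with affyPLM of Bioconductor and a Brainarray chip definition based on Entrez IDs; the submitters' processing notes name RMA, with no version given. RMA makes the arrays' distributions equal, so a change shared by most genes cannot be seen. In these files 17 arrays shared 1 set of sorted values, and control replicate 1 did not. Array data carry no read depth. Gene names came from GEO's platform annotation, updated by Entrez ID through RefSeq (GRCm38.p6): 23111 features had 1 name and 637 had none.

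Groups followed the sample labels. Week 6 replicates 1 and 2 were averaged, which left 17 samples. A linear model with a mean per group was fitted to all named features with limma (version 3.58.1, R 4.3.3), with moderated variances and Benjamini-Hochberg adjustment over all of them; a call required an adjusted p under 0.05 and over 1.5-fold. The labels call the 3 samples of a group biological replicates. The filter on low values kept features above the 40th percentile (4.15) on at least 3 arrays. All members were accounted for by role, and values in every sample were given for members called in any comparison, for both Map1lc3 genes and for the member with the largest mean change in each role; of other lists, at most 3 called genes were to be named. The members and lists were chosen with earlier results of these data known. Alternatives were single arrays, other thresholds, priors, scalings, weights, a replicate block and omission of samples. The fit was tested on simulated data. Promoter letters were searched with Python 3.11.15, and figures were drawn with matplotlib 3.10.9. Some probes of an autophagy gene can also bind its near-identical processed copies, which was not tested.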

Additional observations from a re-analysis of the deposited data

How the results depend on the processing

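Counts of called members changed by more than 1.5 times under these settings. With 18 arrays as separate samples, 11 members differed among the 6 groups (5 with 17 samples) and 1 among the 5 CCl4 weeks (0). By adjusted p alone, 4, 2, 3 and 7 members passed at weeks 2, 4, 8 and 10 (0, 0, 0 and 1 with the fold threshold) and 13 in the mean of all CCl4 weeks (1). Above 2-fold, 1 was called at week 6, Bnip3, against 9 above 1.5-fold, and 0 in the mean of all CCl4 weeks. Array weights gave 1 at week 8 and 8 over the 6 groups. With a replicate block on 18 arrays, 1 was called among the 5 weeks (0). The counts of that setting at week 6 (7, against 9) and over the 6 groups (7, against 5) changed by less than 1.5 times. Deviations of samples with the same replicate number correlated between -0.22 and 0.35 (median -0.0015 over 45 pairs). For different numbers the range was -0.42 to 0.31 (median 0.0072 over 90 pairs). The numbers thus gave no sign of pairing, which so wide a range cannot exclude.

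Leaving out each sample in turn gave at most 10 members at week 6, and fewest where 1 sample of that week remained. It gave 0 to 1 at week 2, 0 to 2 at weeks 8 and 10, 1 to 6 over the 6 groups and 5 to 9 without overlap. The count for week 2 became 1 without control replicate 2 or 3 or week 2 replicate 1 or 3, and that for week 8 became 1 or 2 without control replicate 2 or week 8 replicate 2 or 3. At week 10 it became 2 without control replicate 1 or week 10 replicate 3 and 0 without control replicate 2 or week 10 replicate 1 or 2. Week 4, the mean of all CCl4 weeks, the 5-week test and the later against earlier weeks kept their counts. No named difference changed sign. At week 6, Wipi1 was not called in 9 settings, Atg2a in 7, and Wipi2 and Uvrag in 6 each. With 2 or 3 samples per group, smaller differences may have been missed.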
